A study of Noccaea goesingensis with 12 samples.

Results

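The genes described here are 51 loci of root iron homeostasis, given by their *A. thaliana* identifiers: ferric reductases, the FIT, Ib and IVc bHLH regulators, the E3 ligases of the BRUTUS family, IMA peptides, enzymes and exporters of coumarins, nicotianamine synthases, long-distance transport proteins, ferritins and vacuolar iron transporters. They were chosen by identifier, and 13 of the 51 were found in the deposited comparisons of the ecotypes, which list 5273 genes in all. Roots of *Noccaea goesingensis*, a Ni hyperaccumulator, were sequenced from plants of a serpentinite population (TM, metallicolous) and a dolomite population (NTM, non-metallicolous). The plants were grown from field-collected seed and watered for 3 weeks with or without Ni. By the library titles, the groups were TM Ni (2 libraries), TM control (4), NTM Ni (3) and NTM control (3). RNA of 5 plants was combined in each library. The study's methods instead give 3 samples per group, and which libraries entered each deposited TM value was not settled. No mutant or transgene was involved, and all groups shared the growth substrate and nutrient solution, although the sample labels and the study's methods describe these differently. Each ecotype is represented by 1 population, so ecotype and population cannot be told apart.

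The authors aligned the reads to the *A. thaliana* genome (TAIR10) and deposited 1 expression value per gene and group, so each value stands for a group of libraries and no replicate error can be given. The values are called FPKM (fragments scaled to gene length and library size) after the study's methods, while a column header of the files reads TPM, and which of them holds was not settled. The tables hold only genes with an unadjusted Cuffdiff p-value under 0.05 for TM against NTM, in 1 table without Ni (4460 genes) and 1 with Ni (1944 genes). A gene in a table is called listed. No level is known here for a gene that is not listed, and its absence does not show that the ecotypes were alike. The number of genes tested is not given, so the share of the 51 genes that is listed cannot be set against that of all genes. The files hold no read counts, so the depth behind each value is unknown. By the study's alignment summary, library 14 of NTM Ni had far fewer reads than the other libraries, and its weight in the NTM Ni values was not tested. The files give identifiers alone, and gene names and roles below are those in common use for *A. thaliana*.

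Roots of *A. thaliana* take up iron by reduction. A proton pump acidifies the soil, coumarins released by the root mobilise ferric iron, the reductase FRO2 reduces it at the epidermis, and IRT1, which also carries Ni and other divalent metals, imports it. The transcription factor FIT drives these genes together with Ib bHLH partners. IVc bHLH factors lie upstream of the Ib genes, the E3 ligase BTS marks IVc factors for degradation, and the small IMA peptides inhibit BTS. Inside the plant, nicotianamine and citrate chelate metals for transport, and ferritins and vacuolar carriers store iron.

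In roots without Ni, 9 of the 51 genes were listed. Of these, 6 had the higher value in TM, as did 44.5% of all listed genes with a value above 0 in both ecotypes (1962 of 4407), and 3 the lower one (55.5% of all). Genes with the higher TM value included regulators of the iron deficiency response (*bHLH39*, *PYE*), the IMA peptide genes *IMA1* and *IMA2*, the glucosidase gene *BGLU42* and the ferritin gene *FER3*. The lower TM values belonged to *COSY*, *ZIF1* and *PCR2*. With Ni, 5 of the 51 genes were listed. *FRO2*, *NAS2* and *NAS4* were higher in the TM ecotype, as were 46.0% of all such genes (860 of 1870), and *FRO8* and *ZIF1* were lower (54.0% of all). No test could be run on these counts. *ZIF1* was the 1 gene listed in both states.

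**Figure D1:**
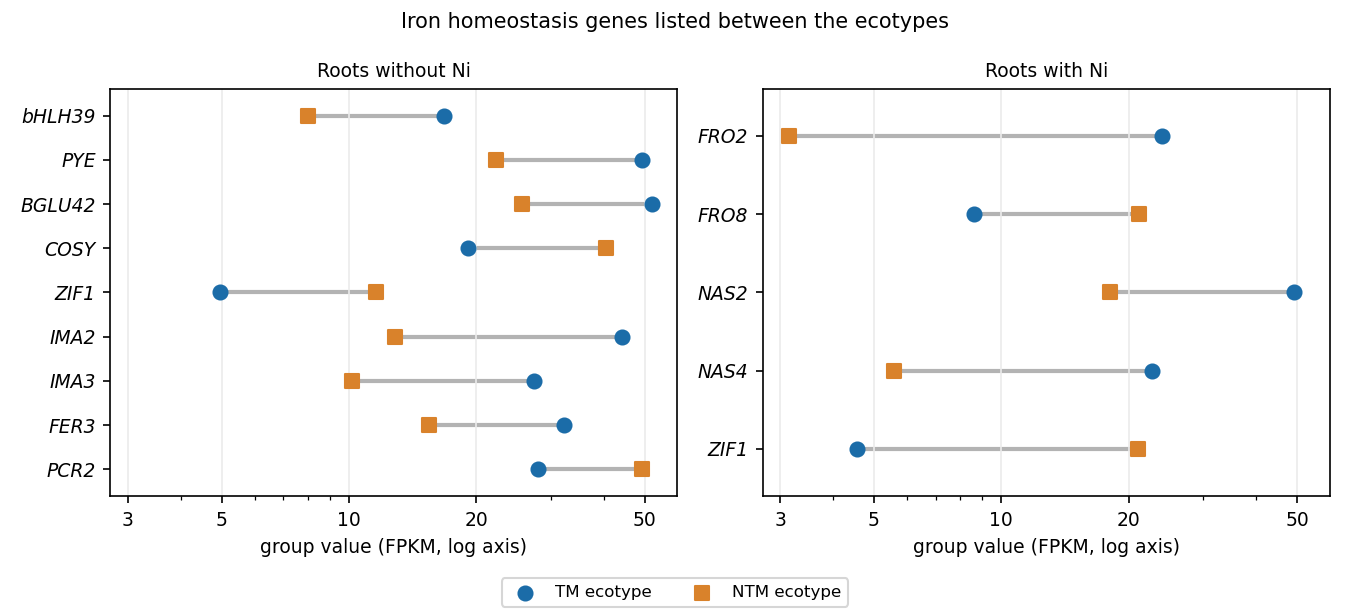
Deposited group values (FPKM, log axis) of the iron homeostasis genes listed in roots without Ni (left) and with Ni (right), with a circle for the TM ecotype, a square for the NTM ecotype and 1 value per group, so no error bars. Without Ni the circle lies to the right of the square for 6 of 9 genes, and with Ni for 3 of 5 genes, with the widest gap for *FRO2* at 24.0 FPKM in TM and 3.14 FPKM in NTM. The row marked *IMA3* is AT1G47400, which is named *IMA1* in the text.

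A difference of more than 1 on the log2 scale was found for 8 of the 9 iron genes without Ni, where 60.6% of all listed genes passed it, and for 5 of the 5 with Ni, where 85.7% passed it. With such high background shares, passing this threshold is not particular to the iron genes. By direction, 6 iron genes without Ni passed it upward in TM (27.6% of all listed genes) and 2 downward (32.9%), and with Ni 3 passed upward (38.9%) and 2 downward (46.8%). The median log2 ratio of TM over NTM was 1.06 over the 9 iron genes and -0.71 over all listed genes without Ni, and 1.44 over the 5 iron genes and -0.91 over all listed genes with Ni. The listed genes formed 2 separate clouds, since no listed gene had a ratio nearer to 0 than 0.55 without Ni or 0.74 with Ni. The medians of the iron genes lay in the higher cloud and those of all listed genes in the lower one. The iron genes were not large differences for their table without Ni, where the median size was 1.08 over the 9 genes and 1.12 over all listed genes. With Ni the median size was 2.02 over the 5 genes and 1.43 over all listed genes.

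**Figure D2:**
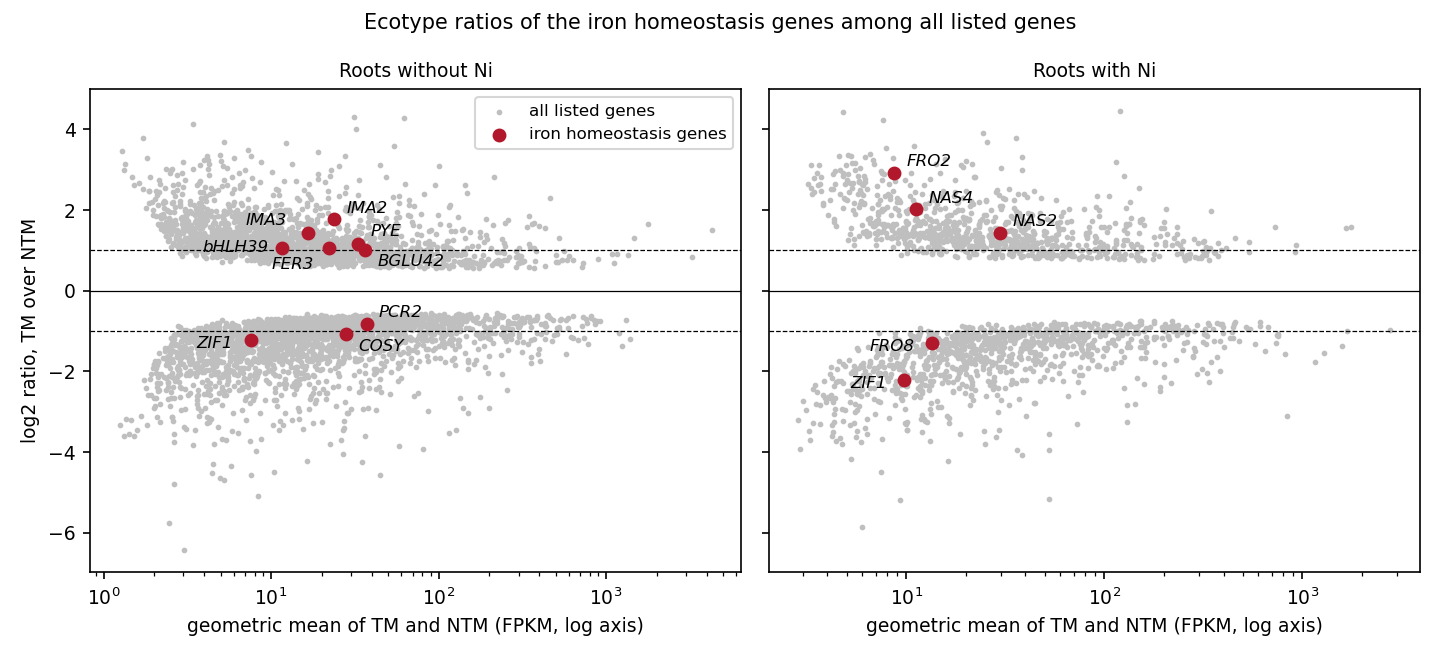
Log2 ratio of TM over NTM against the geometric mean of both group values (FPKM, log axis) for all listed genes (grey) and the iron homeostasis genes (red), without Ni (left) and with Ni (right); dashed lines mark a ratio of 1 and -1 on the log2 scale. No gene lies near 0 in these tables, which hold only genes below the p-value limit, and *FRO2* (2.93) stands near the upper edge with Ni. The point marked *IMA3* is AT1G47400, which is named *IMA1* in the text.

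Of the 8 ferric reductase genes, none was listed without Ni and 2 were listed with Ni, in opposite directions. *FRO2* (AT1G01580, chromosome 1 from 209395 to 213041, TAIR10), the root surface reductase of the FIT pathway, had 24.0 FPKM in TM Ni roots, against 3.14 FPKM in NTM Ni roots. This 7.63-fold difference (log2 2.93) was the largest among the iron genes in either state, and 37 of the 860 genes higher in TM with Ni had a larger ratio. The NTM value was low for its table, above only 6.28% of the listed genes, while the TM value was above 49.0% of them. *FRO8* (AT5G50160, chromosome 5 from 20415771 to 20418742), a reductase assigned to mitochondria, had 8.64 FPKM in TM Ni roots, against 21.1 FPKM in NTM Ni roots, a log2 ratio of -1.29. *FRO1*, *FRO3*, *FRO4*, *FRO5*, *FRO6* and *FRO7* were listed in neither state.

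Of FIT and the 4 Ib bHLH genes, 1 was listed, without Ni. *bHLH39* (AT3G56980, chromosome 3 from 21086546 to 21087494), whose product pairs with FIT, had 16.8 FPKM in TM control roots and 8.00 FPKM in NTM control roots, a log2 ratio of 1.07. Its tandem paralogue *bHLH38* was not listed, nor were *FIT*, *bHLH100* and *bHLH101*. Among the 9 upstream bHLH and E3 ligase genes, *PYE* was listed. *PYE* (AT3G47640, chromosome 3 from 17567126 to 17569385), a bHLH repressor that is itself induced by iron deficiency, had 49.4 FPKM in TM control roots and 22.2 FPKM in NTM control roots, a log2 ratio of 1.15. The 8 others, *BTS*, *BTSL1*, *BTSL2*, *ILR3*, *bHLH34*, *bHLH104*, *bHLH115* and *bHLH121*, were listed in neither state, and neither were *MYB10* and *MYB72*, MYB factors of the iron deficiency response.

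The IMA peptides had the largest ratios of the iron genes without Ni. *IMA2* (AT1G47395, chromosome 1 from 17383034 to 17383408) stood at 44.2 FPKM in TM control roots, against 12.9 FPKM in NTM control roots, which is 3.43-fold higher (log2 1.78). *IMA1* (AT1G47400, chromosome 1 from 17385717 to 17386186) had 27.4 FPKM in TM control roots and 10.2 FPKM in NTM control roots, 2.69-fold higher (log2 1.43). Both were higher in the TM ecotype, and among the 1962 genes higher in TM without Ni, 318 had a larger ratio than *IMA2* and 577 a larger one than *IMA1*. The loci are neighbours, 2308 bp apart, and short, at 375 and 470 bp, so each value rests on a small stretch of aligned sequence. *IMA3* (AT2G30766) was listed in neither state.

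Of the 6 coumarin genes, 2 were listed without Ni, in opposite directions, and none with Ni. *BGLU42* (AT5G36890, chromosome 5 from 14541350 to 14546230), a beta-glucosidase that releases coumarins from their glucosides before secretion, had 51.9 FPKM in TM control roots and 25.6 FPKM in NTM control roots, a log2 ratio of 1.02. *COSY* (AT1G28680, chromosome 1 from 10078189 to 10080029), the acyltransferase that closes the coumarin ring, had 19.2 FPKM in TM control roots and 40.6 FPKM in NTM control roots, a log2 ratio of -1.08. The hydroxylase genes *F6'H1* and *S8H*, the cytochrome P450 gene *CYP82C4* and the exporter gene *ABCG37* were listed in neither state, and neither was *AHA2*, the main root proton pump of the acidification response.

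Among the 4 nicotianamine synthase genes, *NAS2* and *NAS4* were listed with Ni and none without Ni. These enzymes make nicotianamine, a chelator of iron, zinc and Ni. *NAS2* (AT5G56080, chromosome 5 from 22711402 to 22712364) had 49.0 FPKM in TM Ni roots and 18.0 FPKM in NTM Ni roots, 2.72-fold higher (log2 1.44), and *NAS4* (AT1G56430, chromosome 1 from 21136944 to 21138087) had 22.7 FPKM in TM Ni roots and 5.59 FPKM in NTM Ni roots, 4.05-fold higher (log2 2.02). Both synthase genes that were listed had the higher value in the TM ecotype. *NAS1* and *NAS3* were listed in neither state, and neither were *FRD3*, which encodes the citrate exporter of the xylem, and *OPT3*, which encodes a phloem transporter of iron.

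*ZIF1* (AT5G13740, chromosome 5 from 4432306 to 4436668) encodes a vacuolar membrane carrier that moves nicotianamine into the vacuole and affects zinc and iron partitioning. It was lower in the TM ecotype in both states, at 4.55 FPKM in TM Ni roots against 21.0 FPKM in NTM Ni roots (log2 -2.21), and at 4.96 FPKM in TM control roots against 11.6 FPKM in NTM control roots (log2 -1.22). By the library titles, the comparisons with and without Ni share no library. Set side by side within an ecotype, the TM values were close, a log2 ratio of Ni over control of -0.12, while the NTM value was 1.81-fold higher with Ni, a log2 ratio of 0.86. Neither passed a log2 ratio of 1, which was passed by 4.57% of 1115 genes in TM and 7.62% in NTM. These 1115 genes are only those listed in both states with a value above 0 in all 4 groups, not all genes. Of them, 417 had a lower ratio of Ni over control than *ZIF1* in TM and 42 a higher one in NTM. The tables may have been normalized separately, which was not settled. The median ratio of Ni over control over these genes was -0.02 in TM and 0.05 in NTM. The difference between the Ni ratios of the ecotypes was not tested. By the titles, the TM Ni value rests on 2 libraries, and the NTM Ni group includes library 14, which had far fewer reads.

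**Figure D3:**
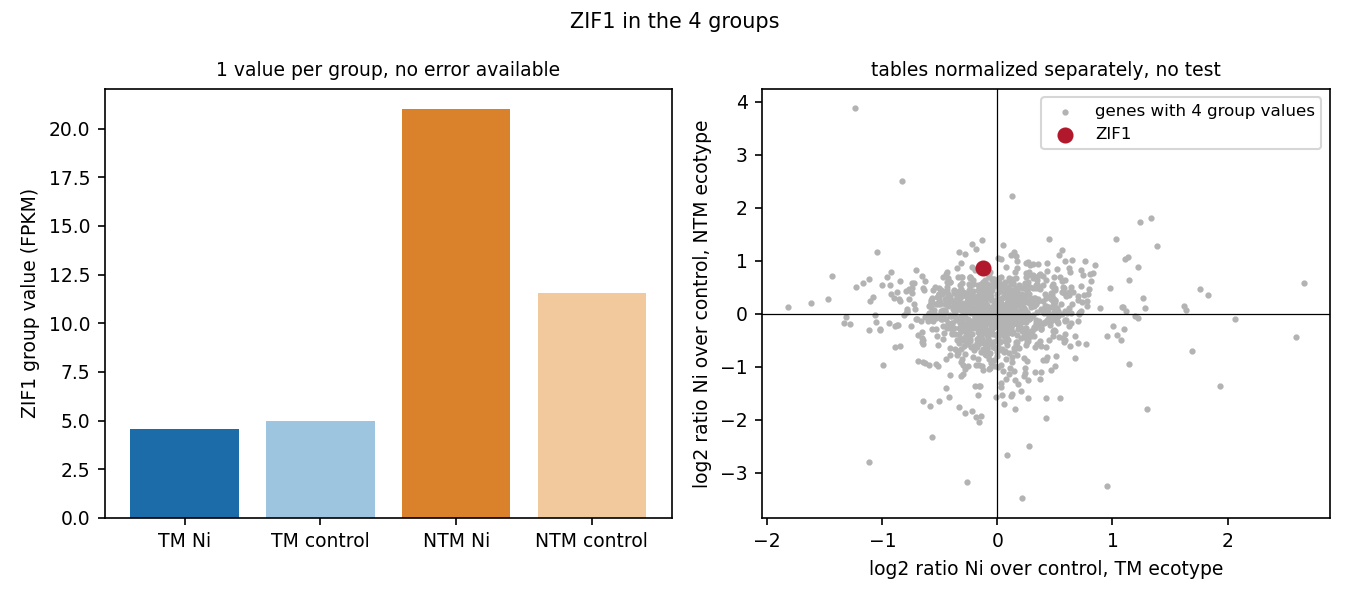
Left, deposited group values of *ZIF1* (FPKM, linear axis from 0) in TM Ni, TM control, NTM Ni and NTM control roots, 1 value per bar and no error available. Right, log2 ratio of Ni over control in TM (horizontal) and NTM (vertical) for the 1115 genes with 4 group values (grey), with *ZIF1* in red at -0.12 in TM and 0.86 in NTM. The separate normalization named in the panel title is an assumption.

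Of the 8 storage genes, *FER3* was listed without Ni and none with Ni. *FER3* (AT3G56090, chromosome 3 from 20814047 to 20816035), a plastid ferritin gene, had 32.3 FPKM in TM control roots and 15.4 FPKM in NTM control roots, a log2 ratio of 1.06. *FER1*, *FER2*, *FER4*, *VIT1*, *VTL1*, *VTL2* and *VTL5* were listed in neither state. *PCR2* (AT1G14870, chromosome 1 from 5128375 to 5129523), which encodes a membrane protein that exports zinc, had 28.0 FPKM in TM control roots and 49.3 FPKM in NTM control roots. Its log2 ratio of -0.82 was the smallest of the listed iron genes, and AT3G25290 was listed in neither state.

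The levels of the listed iron genes spanned 4.96 to 51.9 FPKM in TM control and 8.00 to 49.3 FPKM in NTM control roots. The TM value was above the table's median of 15.4 FPKM for 8 of the 9 genes, and the NTM value above the median of 17.2 FPKM for 4 of the 9. With Ni the levels spanned 4.55 to 49.0 FPKM in TM and 3.14 to 21.1 FPKM in NTM roots. The TM value was then above the median of 24.6 FPKM for 1 of the 5 genes and the NTM value above the median of 27.3 FPKM for 0 of the 5. In TM control roots *BGLU42*, *PYE* and *IMA2* had the highest levels per length and *ZIF1* the lowest, and in NTM control roots *PCR2* and *COSY* the highest and *bHLH39* the lowest. Which neighbours in these orders differ beyond their spread cannot be told without values per library. The *NAS*, *IMA*, Ib bHLH and ferritin genes have close paralogues, and reads of another species may be shared between copies by the alignment, so their values are uncertain as to the copy. No listed locus overlapped any of the listed iron loci. In these bulk roots, fewer cells of a type and less RNA per cell cannot be told apart.

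Other genes of the same pathways were read from lists fixed by identifier. Of 14 genes of iron and companion metal transport, 3 were listed without Ni (2 higher, 1 lower in TM) and 2 with Ni, both higher in TM. *IRT1* (AT4G19690) had 346.4 FPKM in TM Ni roots and 38.1 FPKM in NTM Ni roots, a log2 ratio of 3.19 beside 2.93 for *FRO2*, its partner in uptake. *NRAMP1* (AT1G80830), a carrier of manganese and iron, had 29.3 FPKM in TM Ni roots and 13.1 FPKM in NTM Ni roots (log2 1.16). Without Ni, *IREG1* (AT2G38460), an exporter that loads iron towards the xylem, had 55.2 FPKM in TM control roots and 20.1 FPKM in NTM control roots (log2 1.46), and *IREG2* (AT5G03570) had a log2 ratio of 1.59. *MTP8* (AT3G58060), a vacuolar manganese and iron carrier, had a log2 ratio of -1.50.

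Of 11 genes of the general phenylpropanoid steps before coumarins, *PAL2* and *C4H* were listed without Ni and *4CL2* with Ni. *PAL2* (AT3G53260) had 135.7 FPKM in TM control roots and 332.4 FPKM in NTM control roots (log2 -1.29). *C4H* (AT2G30490) had 709.4 FPKM in TM control roots and 1188 FPKM in NTM control roots (log2 -0.74), and *4CL2* (AT3G21240) had 185.4 FPKM in TM Ni roots and 99.9 FPKM in NTM Ni roots (log2 0.89). These enzymes also feed lignin and flavonoids. Of 7 partners or relatives of FIT, *bHLH19* (AT2G22760) and *bHLH20* (AT2G22770), IVa bHLH genes whose products promote FIT turnover, were listed without Ni. *bHLH19* had 4.22 FPKM in TM control roots and 1.14 FPKM in NTM control roots (log2 1.89), and *bHLH20* had 31.8 FPKM in TM control roots and 18.7 FPKM in NTM control roots (log2 0.77). Of 10 paralogues of the iron genes, the proton pump gene *AHA3* (AT5G57350) was lower in TM in both states (log2 -0.88 with Ni and -0.69 without Ni), *AHA7* (AT3G60330) was lower without Ni (-1.05) and *VTL4* (AT3G43660) lower with Ni (-1.05). None of the 4 S-adenosylmethionine synthetase genes, which supply the precursor of nicotianamine, was listed.

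**Figure D4:**
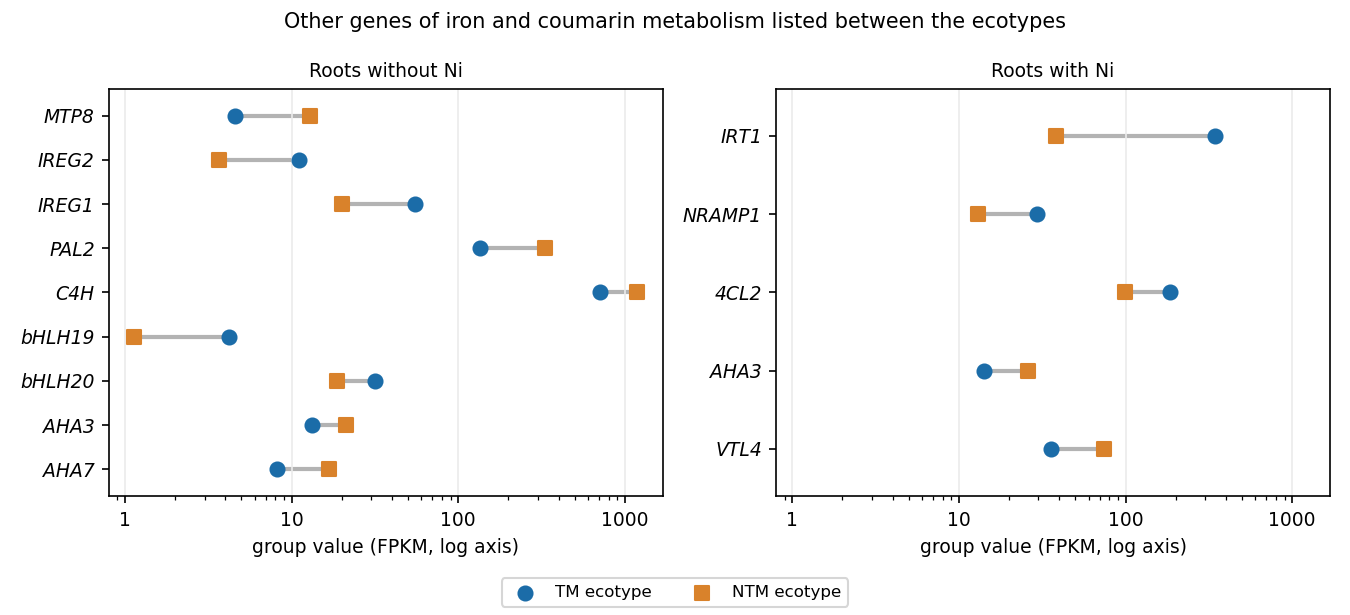
Deposited group values (FPKM, log axis) of the other listed genes of metal transport, phenylpropanoid steps, FIT partners and paralogues, without Ni (left) and with Ni (right), with a circle for TM, a square for NTM and no error available. *IRT1* shows the widest gap with Ni, at 346.4 FPKM in TM and 38.1 FPKM in NTM.

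Most tissue markers have no row and so give no level. Of 6 root markers (2 each of epidermis, endodermis and stele), the endodermal gene *SCR* was listed, at 10.8 FPKM in TM control roots and 18.5 FPKM in NTM control roots. Of 6 markers of green shoot tissue, the chlorophyll-binding genes *CAB2* and *CAB3* were listed without Ni, with summed levels of 35.4 FPKM in TM control and 125.8 FPKM in NTM control roots, and *CAB2* with Ni, at 12.5 FPKM in TM Ni and 35.9 FPKM in NTM Ni roots. No listed marker was at 0, and the part of such markers in the ratios of the iron genes was not tested.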

How the data were processed

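RNA-seq of roots was available for 12 libraries in 4 groups, mapped by their titles. According to the study's methods and the submitters' processing notes, the authors trimmed reads with cutadapt 1.8.1, aligned them with HISAT2 2.1.0 to the *A. thaliana* genome (TAIR10) and ran Cuffdiff of Cufflinks 2.2.1 with default parameters and geometric normalization. The authors deposited FPKM values, 1 per gene and group (8 columns, all mapped, with 0 per-sample columns left out), and the values of the group files equalled those of the comparison tables (0 differing values). The tables also hold the authors' deposited p-value and log2 fold change for TM against NTM. The p-value column was read only to check that every listed gene lies under 0.05, and neither column was used further. Reads could not be recovered, since group values combine libraries.

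Log2 ratios were formed as TM over NTM within a table, and as Ni over control for genes of both tables, from the deposited FPKM with no pseudocount. Genes at 0 in a group got no ratio (53 without Ni, 74 with Ni). A ratio beyond 1 on the log2 scale counted as past the threshold, with no test, since each group has 1 value. The alternatives were pseudocounts of 0.1 and 1 FPKM, a minimum of 1 FPKM, a threshold of 2, centring on the median, and, added after the data were seen, loci of 500 bp or longer. A count that moved by no more than 1.5 times was treated as unmoved. The rule for naming was every listed member, and of each other list at most the 2 largest ratios in each direction. The members and lists were chosen with earlier results of these data known. Locus starts were converted to count from 1. The ratio and its threshold were tested on simulated data. No reference annotation or sequence was used here, and gene names come from common *A. thaliana* usage. Python 3.11.15, numpy 2.4.6, pandas 2.3.3 and matplotlib 3.10.9 were used.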

Additional observations from a re-analysis of the deposited data

Results flagged for a closer look

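*ZIF1* is given here because its ratios of Ni over control had opposite signs in the ecotypes, although the TM ratio was close to 0. Ni over control gave a log2 ratio of -0.12 in TM and 0.86 in NTM, so the TM ratio minus the NTM ratio was -0.98. Of 1115 genes listed in both states with 4 group values, 417 had a lower ratio than *ZIF1* in TM, where the SD across genes was 0.45. In NTM, where it was 0.60, 42 had a higher one. For the difference, 66 genes had a lower value, and the median was -0.05. With 1 value per group and tables that may have been normalized separately, this difference was not tested. The weight of library 14, which had far fewer reads, in the NTM Ni value was not tested either.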

How the results depend on the processing

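All 92 single-gene ratios recomputed under the alternatives named here kept their sign. Pseudocounts, the threshold of 2 and the filters cannot change a sign, so only centring could have done so. A threshold of 2 left 0 iron genes without Ni and 3 with Ni (*FRO2*, *NAS4* and *ZIF1*), against 8 and 5 in the report; a higher limit can only remove genes. Centring subtracted medians that lie among the lower genes, -0.71 without Ni and -0.91 with Ni, and so moved all ratios up. It left 6 iron genes higher and 0 lower without Ni (44.5% and 11.3% of all listed genes), and 3 higher and 1 lower with Ni (46.0% and 16.0%), with *COSY*, *ZIF1* without Ni and *FRO8* no longer past the threshold. With a pseudocount of 1 FPKM, *bHLH39* (0.99) and *BGLU42* (0.99) lay under 1 and 6 genes remained without Ni. Loci of 500 bp or longer also left 6, without both IMA genes. The counts of Ni over control cover *ZIF1* alone, the 1 iron gene listed in both states. They were 0 in both ecotypes under each alternative. No library could be left out, and depth per value is unknown. No paired analysis was possible because the files give 1 value per group.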
